A study of Homo sapiens with 6 samples.

Results

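A set of 6 non-coding RNAs that serve as scaffolds or catalysts of cellular machines were followed across the libraries: RN7SK (7SK), RN7SL1 and RN7SL2 (7SL), RMRP, RPPH1 and SNORD3A (U3). They are 6 of the 57773 genes in the deposited table and were selected on the same contrast that is described here, so their fold changes are given as a description and carry no test. Total RNA was sequenced from HEK293, an established line derived from human embryonic kidney, in 6 libraries, of which 3 carry the label TRDMT1 knockdown and 3 the label control, to examine the function of TRDMT1 (DNMT2), a methyltransferase that acts on certain tRNAs. The protocol in the labels, the same for both groups, lists Trizol, depletion of ribosomal RNA, a bisulfite kit for RNA methylation and a stranded total RNA kit; whether the counted libraries were those treated with bisulfite is not stated. The labels give neither the knockdown method, nor whether a clone or a pool was used, nor a batch. Separate cultures are not stated either, so a p-value here reflects how far these particular libraries vary, and that variation may be technical.

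7SK is an RNA made by RNA polymerase III that holds the elongation kinase P-TEFb (CDK9 with cyclin T) inactive together with HEXIM1, while MEPCE caps its 5′ end and LARP7 binds its 3′ end. 7SL is the polymerase III scaffold of the signal recognition particle, which brings ribosomes making secreted proteins to the endoplasmic reticulum. RPPH1 and RMRP are the polymerase III RNA subunits of RNase P, which trims the 5′ leader of tRNA precursors, and of the related RNase MRP, which cuts ribosomal RNA precursors. U3 guides early cleavage of the ribosomal RNA precursor and is made by polymerase II, so the common class of the 6 RNAs is small and structural, not polymerase III alone.

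The start of 7SK is shown because it carries the repeats known for contact with HEXIM1. Sequences were read from the transcripts of GENCODE release 29 on GRCh38, matched by symbol since the table carries other gene IDs for RN7SK, RN7SL1, RN7SL2, RN7SL3 and RPPH1, and the one printed is written 5′ to 3′ with T for U. Bases 1 to 80 of RN7SK are shown with each GATC (read on either strand, since it is its own reverse complement) in capitals.
RN7SK: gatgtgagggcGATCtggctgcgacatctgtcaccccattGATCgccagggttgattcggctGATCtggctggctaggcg
All 3 GATC of RN7SK fell within its first 80 bases, at positions 12, 41 and 63. Of 205123 transcripts of at least 80 bases, 18.1% held the motif at least once in that window and 0.163% held it 3 times or more. RN7SL1 (299 bases) and RN7SL2 (300 bases) were 98.3% identical, with a longest shared run of 205 bases. A read inside that run fits both genes. How reads with several matches were counted is not stated in the sources used here, so the split between RN7SL1 and RN7SL2 is uncertain.

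The libraries labelled knockdown held 36455950 to 40088993 counts and those labelled control 24776040 to 26802182. TRDMT1 went against the labels: it stood at 5.72, 5.76 and 5.73 CPM (a gene's counts scaled to library size, here with edgeR's TMM factors) in the libraries labelled knockdown and at 3.75, 4.62 and 2.91 in those labelled control (log2 fold change 0.61 ± 0.21 SE, adjusted p = 0.0705, edgeR), and it passed the threshold without control library 2 (0.79). The second library names in the sample descriptions also read the other way round from the titles, so each direction below is that of the labels. Control library 2 stood apart: compared gene by gene, its counts gave a chi-square per degree of freedom of 217.3 and 288.8 against the other 2 controls, compared with 27.1 between those 2 and 3.85 to 6.87 among the libraries labelled knockdown. All 10 markers that HEK293 cells are known to express were above 1 CPM in every library, with summed levels of 1805 to 1869 CPM in the libraries labelled knockdown and 2114 to 2674 in those labelled control. Fibroblast markers summed to 43.0 to 47.8 against 10.1 to 53.3 CPM (2 of 5 above 1 CPM throughout). Of these, COL1A2 stood at 3.78 to 4.42 CPM in the libraries labelled knockdown and at 0 in every control. LUM went the other way, at 0.439 to 0.708 against 0.756 to 1.83. COL1A1, the largest part of the sum, COL3A1 and DCN overlapped. Leukocyte markers summed to 1.31 to 1.67 against 1.21 to 1.75 (1 of 4) and erythroid markers to at most 0.272 (0 of 3). Hepatocyte markers summed to 0.653 to 0.878 against 0.0756 to 0.336 (0 of 3).

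The 6 RNAs together took up 104.6, 141.9 and 94.9 CPM (here of the library total, without TMM) in the libraries labelled knockdown and 15.7, 45.7 and 19.2 in those labelled control. The groups did not overlap, and control library 2 lay between them. RN7SK, RN7SL1, RN7SL2 and RMRP were higher in every library labelled knockdown than in any labelled control, whereas RPPH1 and SNORD3A overlapped. Among all 17805 genes tested, 23.9% had groups that did not overlap in that direction. All 6 RNAs passed the filter on low counts, and 2 of them, RN7SK and RN7SL2, were among the genes called by edgeR (adjusted p under 0.05), as were 24% of all genes tested, 9.29% higher and 14.7% lower. Since the RNAs were chosen on this contrast, nothing is read from these counts. Scaling to the library total instead of TMM moved the median log2 fold change of all genes from -0.04 to 0.13 and the split of called genes from 1654 higher and 2613 lower to 1890 and 1651. In bulk RNA, fewer cells that make an RNA and less of it in each cell cannot be told apart.

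**Figure D1:**
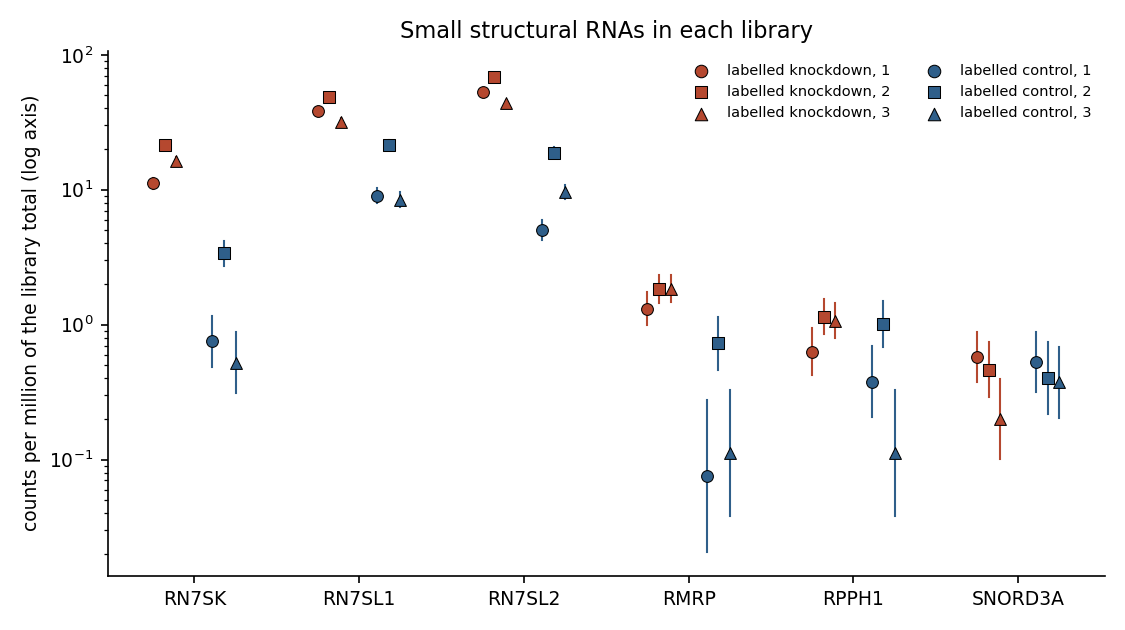
CPM of the library total (log axis) of the 6 RNAs in each library, with bars for the 95% Wilson interval of the counts; red marks libraries labelled knockdown, blue those labelled control, and shapes the replicate number. For RN7SK the red points lie at 11.1 to 21.5 and the blue at 0.522 to 3.39, while for SNORD3A the colours mix.

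RN7SK, the scaffold that holds P-TEFb, showed the widest gap of the 6. Its counts were 406, 788 and 650 in the libraries labelled knockdown and 20, 84 and 14 in those labelled control, or 33.7, 64.8 and 49.0 against 2.28, 10.2 and 1.58 RPKM (reads per kilobase of exon, scaled to library depth). Every library labelled knockdown was above every control, and control library 2 was the highest control. The group means were 15.3 ± 4.83 against 1.81 ± 2.05 CPM (SD, n = 3 each), an 8.43-fold difference of means, with a log2 fold change of 3.13 ± 0.74 (SE). By signed log2 fold change, with the largest rise first, this placed RN7SK at rank 21 from the top of the 17805 genes tested. Control library 2 held 6.59 times the mean of the other 2 controls, and without it the log2 fold change was 4.60; against control library 2 alone the mean of the libraries labelled knockdown was 3.66-fold higher.

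RN7SL1 and RN7SL2, the 2 main genes of the signal recognition particle RNA, were the most abundant of the 6. RN7SL1 gave 1389, 1779 and 1283 counts in libraries with the knockdown label and 238, 528 and 226 in those labelled control, or 127, 161 and 107 against 29.98, 71.0 and 28.1 RPKM. RN7SL2 gave 1928, 2519 and 1747 against 132, 467 and 259 counts, or 178, 231 and 147 against 16.8, 63.5 and 32.5 RPKM. Within each group replicate 2 was the highest for both genes, and neither gene overlapped between the groups. RN7SL1 averaged 37.2 ± 7.84 against 14.5 ± 10.2 CPM, a 2.56-fold difference of means with a log2 fold change of 1.37 ± 0.46 (SE, n = 3 each), rank 344 from the top. RN7SL2 averaged 51.7 ± 11.9 against 12.5 ± 9.50 CPM, a 4.13-fold difference with a log2 fold change of 2.05 ± 0.52, rank 75. Control library 2 stood at 3.05 and 3.22 times the mean of the other 2 controls, and without it the log2 fold changes were 2.11 for RN7SL1 and 2.84 for RN7SL2. The mean of the libraries labelled knockdown was 1.42-fold above control library 2 for RN7SL1 and 2.23-fold for RN7SL2.

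The balance of the counts given to the 7SL pair differed as well, though the split of reads between these near-identical genes is uncertain. RN7SL2 made up 58.1% (95% exact binomial interval 56.4 to 59.8), 58.6% (57.1 to 60.1) and 57.7% (55.9 to 59.4) of the counts of the pair in the libraries labelled knockdown. It made up 35.7% (30.8 to 40.8), 46.9% (43.8 to 50.1) and 53.4% (48.9 to 57.9) in those labelled control. The intervals of the libraries labelled knockdown overlapped one another, while the controls spread over a wide range below them, and the interval of control library 3 reached into theirs. Intervals here cover counting error only. RN7SK per 100 counts of the 7SL pair was 12.2, 18.3 and 21.5 in the libraries labelled knockdown and 5.41, 8.44 and 2.89 in those labelled control, so 7SK stood further apart between the groups than 7SL did.

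**Figure D2:**
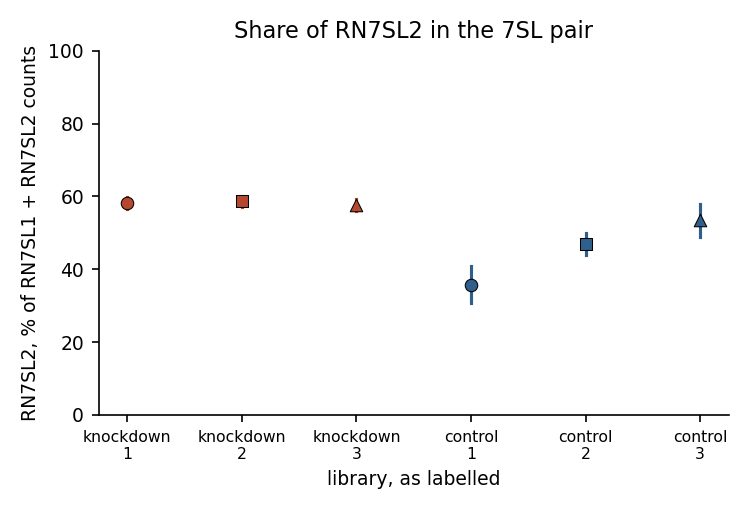
Share of RN7SL2 in the counts of RN7SL1 and RN7SL2 (percent, axis from 0) in each library, with bars for the 95% exact binomial interval. The 3 libraries labelled knockdown lie at 57.7 to 58.6% and the 3 labelled control at 35.7 to 53.4%. The bars leave out the uncertain split of reads between these near-identical genes.

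The 2 catalytic RNAs were sparsely counted. RMRP, of RNase MRP, gave 48, 67 and 74 counts in the knockdown-labelled libraries and 2, 18 and 3 in those labelled control, or 4.91, 6.81 and 6.89 against 0.28, 2.71 and 0.42 RPKM. The groups did not overlap, yet the Wilson intervals of knockdown library 1 (0.993 to 1.75 CPM of the library total) and control library 2 (0.460 to 1.15) did. RMRP averaged 1.56 ± 0.28 against 0.360 ± 0.464 CPM, a 4.34-fold difference of means with a log2 fold change of 2.24 ± 0.73 (SE, n = 3 each). Control library 2 held 9.69 times the mean of the other 2 controls, and without it the log2 fold change was 4.03. RPPH1, of RNase P, gave 23, 42 and 43 against 10, 25 and 3 counts, or 0.99, 1.79 and 1.68 against 0.59, 1.58 and 0.18 RPKM. Control library 2 lay above knockdown library 1, so the groups overlapped. RPPH1 averaged 0.892 ± 0.259 against 0.577 ± 0.592 CPM with a log2 fold change of 0.71 ± 0.70, which became 1.88 without control library 2. The filter on low counts asked for 0.316 CPM in 3 libraries. RMRP reached that level in 3 libraries labelled knockdown and 1 labelled control, so it passed through the group in which it was high, and RPPH1 reached it in 3 and 2.

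SNORD3A, the U3 RNA and the one member made by polymerase II, did not share the pattern. It gave 21, 17 and 8 counts under the knockdown label and 14, 10 and 10 in those labelled control, or 0.82, 0.66 and 0.29 against 0.76, 0.58 and 0.53 RPKM. The highest and the lowest library both carried the knockdown label. The means were 0.389 ± 0.183 against 0.464 ± 0.089 CPM (SD, n = 3 each), with a log2 fold change of -0.26 ± 0.45 (SE). Control library 2 stood at 1.11 times the mean of the other 2 controls, unlike the other 5 RNAs, for which it stood at 3.05 to 9.69 times. At 8 to 21 counts a library, a difference within that error was not detectable.

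Per length, the order in the libraries labelled knockdown was RN7SL2 (185 ± 42.5 RPKM, SD, n = 3), RN7SL1 (132 ± 27.7), RN7SK (49.1 ± 15.6), RMRP (6.20 ± 1.12), RPPH1 (1.49 ± 0.43) and SNORD3A (0.590 ± 0.272). The 2 7SL genes overlapped each other, and the remaining neighbours in that order did not overlap. In the libraries labelled control the order was RN7SL1 (43.0 ± 24.3), RN7SL2 (37.6 ± 23.7), RN7SK (4.70 ± 4.81), RMRP (1.137 ± 1.364), RPPH1 (0.783 ± 0.720) and SNORD3A (0.623 ± 0.121), and each neighbouring pair except RN7SL2 with RN7SK overlapped. RN7SL2 ranked 124 to 208 by RPKM over all genes in the libraries labelled knockdown and 723 to 3122 in those labelled control. RN7SK ranked 669 to 1440 against 4114 to 12047. The RPKM of RPPH1 and SNORD3A rest on rows of 638 and 699 exonic bases, longer than the 333 and 217 bases of the RNAs in GENCODE, so their level per length is that of the row and not of the RNA alone.

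The genome carries many near copies of 7SK and 7SL, most of them not known to be made as functional RNA, and the table lists them as rows of their own. The 298 other rows of the 7SK family, 59 of them with any count, summed to 142, 148 and 156 counts in libraries with the knockdown label and 73, 66 and 110 in those labelled control. Scaled, they overlapped between the groups, at 3.70 ± 0.08 against 3.35 ± 0.62 CPM (SD, n = 3 each), a 1.11-fold difference where RN7SK itself differed 8.43-fold. RN7SK thus made up 74.1, 84.2 and 80.7% of its family's counts in the libraries labelled knockdown but 21.5, 56.0 and 11.3% in those labelled control. The 860 other rows of the 7SL family, 223 of them with any count, stood at 15.4 ± 1.598 against 14.0 ± 1.99 CPM, a 1.10-fold difference where RN7SL1 and RN7SL2 together differed 3.29-fold. With all rows of a family summed, the log2 fold change was 1.89 ± 0.32 for 7SK and 1.35 ± 0.31 for 7SL. The 5 copies of RMRP overlapped between the groups (1.07-fold). The 86 other U3 rows stood at 1.29 ± 0.26 against 1.78 ± 0.20 CPM. Unlike the other copies they did not overlap, and were lower in the libraries labelled knockdown (1.035 to 1.561 against 1.598 to 1.989). The copies are uncertain for the same reason as the 7SL pair, since a read that fits several rows may be counted for either.

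**Figure D3:**
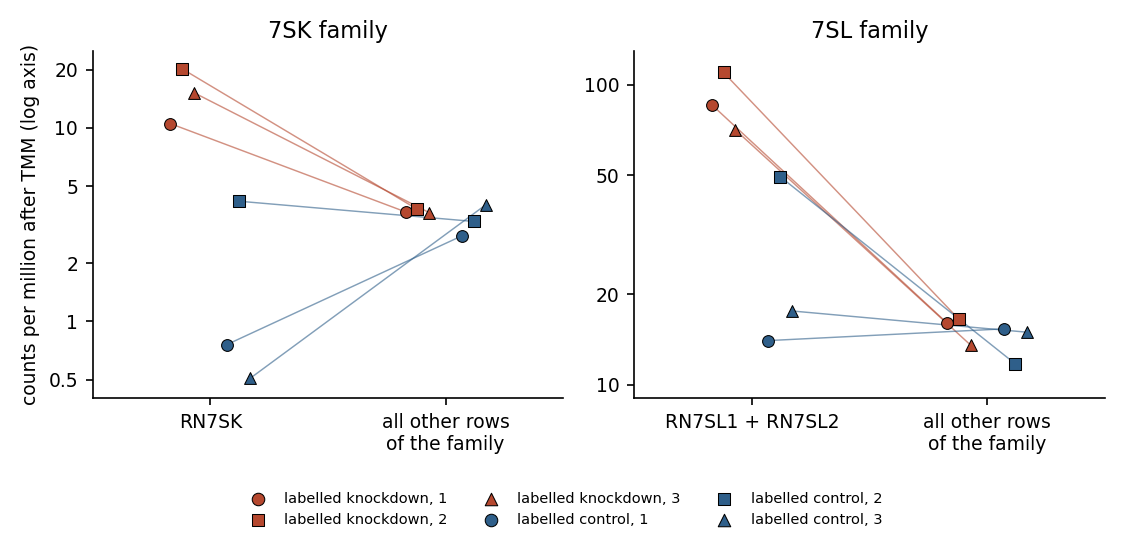
CPM after TMM scaling (log axis) of RN7SK (left) and of RN7SL1 plus RN7SL2 (right) beside the sum of all other rows of the same family, with lines joining the values of 1 library; colour gives the label and shape the replicate. The main genes separate by label, while the copies lie at 2.77 to 4.00 CPM for 7SK and 11.7 to 16.5 CPM for 7SL in all libraries.

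Most other genes of like length had lower log2 fold changes. Among 107 tested genes with 250 or more but under 350 exonic bases, other than the 6 RNAs, the median log2 fold change was -0.29 (quartiles -0.88 and 0.32). Of these genes 5 were called higher (4.67%) and 10 lower (9.35%), and 0 exceeded a log2 fold change of 2, which RN7SK, RN7SL2 and RMRP did. The 6 RNAs were chosen on this contrast, and RMRP passed the filter through its higher group. Nothing is therefore read from their place against the class. RN7SL1 itself, at 1.37, lay below the highest of these other genes, RN7SL3 (1.77), AL807752.1 (1.74) and RN7SL417P (1.49), which were looked up after the values were seen. RN7SL3 is a further 7SL gene, in GENCODE 97.7% identical to RN7SL1, with 71, 113 and 76 counts in the knockdown-labelled libraries and 9, 24 and 12 in those labelled control (log2 fold change 1.77 ± 0.48, adjusted p = 0.0372, edgeR). Its call held with control library 2 left out and ended with any other 1 library left out (1.498 to 1.89). It shares runs of up to 123 bases with RN7SL1 and RN7SL2, so reads of those genes could be counted there too. Genes of that length class took 0.185 to 0.217% of counts in the libraries labelled knockdown, 0.222 and 0.214% in control libraries 1 and 3, and 0.449% in control library 2. Genes under 200 bases took 0.0788 to 0.0901%, 0.0978 and 0.0896%, and 0.263% in the same order. Control library 2 thus held more counts in short genes as a whole, and the part of that in its higher level of the 5 RNAs was not tested. With trends in exonic length and GC content removed, the log2 fold changes of the 6 RNAs were 3.19, 1.31, 2.01, 2.15, 0.69 and -0.23.

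**Figure D4:**
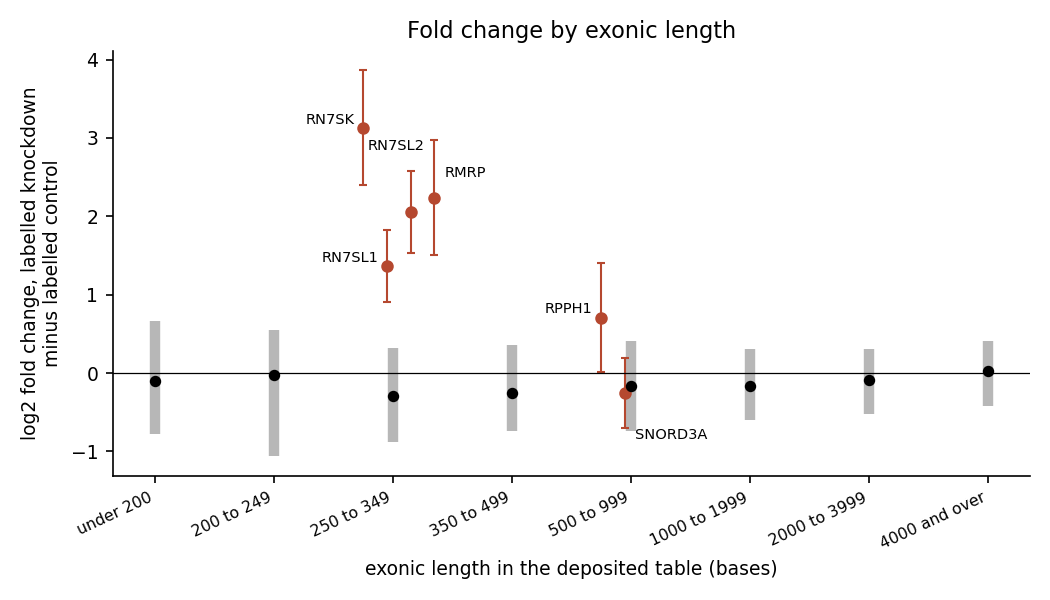
Log2 fold change (labelled knockdown minus labelled control) by exonic length in bases; black points are medians and grey bars the quartiles of all other tested genes in a length class, and red points are the 6 RNAs with their SE. RN7SK, RN7SL1, RN7SL2 and RMRP lie above the quartile range of their length class, as does RPPH1 in its class. SNORD3A lies within that class's range. The 6 RNAs were chosen on this contrast.

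Other small RNAs of the same origin were nearly absent from the counts. Lists of other polymerase III RNAs (Y RNAs, vault RNAs, U6 and others), of small nuclear RNAs made by polymerase II with TERC, and of box C/D RNAs with genes of their own held 47 RNAs, of which 43 were in the table. The 35 of at most 200 bases summed to 116 counts over all 6 libraries, against 14895 for the 6 RNAs described here: 20 of them were at 0, 32 were under 10, and the highest, RNU5A-1 of the U5 particle, had 43. Only 3 of the 47 could be tested, RN7SL3, BCYRN1 and SNORD3D. BCYRN1, a neuronal polymerase III RNA, had a log2 fold change of 0.67 ± 0.33 (adjusted p = 0.177, edgeR), but its row spans 13458 exonic bases and is not that RNA alone; it passed the threshold without control library 2 (1.09). SNORD3D, another U3 gene, stood at -0.57 ± 0.35 (adjusted p = 0.265). With so few counts, whether the smallest polymerase III RNAs followed 7SK and 7SL could not be read from this table, and why their counts were so low was not tested.

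The 6 RNAs lie on 4 chromosomes. RN7SL1, RN7SL2 and RPPH1 are on chromosome 14, where the 438 tested protein-coding genes had a median log2 fold change of -0.50, with 0.457% called higher and 39.5% lower. RN7SK is on chromosome 6 (median -0.14, 9.14% higher and 26.4% lower). RMRP is on chromosome 9 (0.29, 25.3% and 6.63%) and SNORD3A on chromosome 17 (0.10, 9.71% and 9.2%). Of all genes tested, 9.29% were called higher and 14.7% lower. RMRP had the sign of its chromosome's median, and the other RNAs had the opposite sign to theirs. The 6 RNAs were chosen on this contrast, so nothing is read from these signs. Coding genes next to the 6 RNAs were looked up in RefSeq's order after the values were seen, and all 6 tested neighbours on chromosome 14 had negative log2 fold changes. NEMF, a factor of ribosome quality control beside RN7SL2, fell by 3.22 on the log2 scale (SE 0.28, adjusted p = 0.000807, edgeR), and LRR1 beside RN7SL1 fell by 1.30 (SE 0.15, adjusted p = 0.00235). PARP2, a DNA repair enzyme beside RPPH1, fell by 1.07 (SE 0.19, adjusted p = 0.00959). RPS29, a ribosomal protein gene whose span overlaps RN7SL1, stood at -2.08 ± 0.66 (adjusted p = 0.0591); without the strand setting, reads of such overlapping genes cannot be told apart. Beside RN7SK, GSTA4 stood at -0.44 ± 0.13 (adjusted p = 0.0506) and ICK at 0.40 ± 0.19 (adjusted p = 0.16).

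Over the 6 libraries RN7SK, RN7SL1, RN7SL2 and RMRP had Pearson r of log2 CPM from 0.95 to 0.98 for each pair. RPPH1 correlated with them at 0.68 to 0.84, and SNORD3A with the other 5 at -0.29 to -0.09. These values describe 6 points that share library and label, and so follow the contrast on which the RNAs were chosen. Over the 3 libraries labelled knockdown alone, RMRP stood at 0.053 with RN7SL1 and 0.048 with RN7SL2, and RN7SK at 0.50 with RN7SL1. Among 8340 other genes that averaged 5 RPKM or more in one group, the profiles most like RN7SK were those of MSTO1 (r = 0.995, log2 fold change 0.56) and ALDH4A1 (0.994, 0.54). For RN7SL1 they were TIMM10B (0.995, 0.45) and DUSP22 (0.990, 0.40), for RN7SL2 FZD4 (0.993, 0.68) and AIF1L (0.990, 0.37), and for RMRP MUTYH (0.998, 0.61) and LPAR2 (0.997, 0.20). For RPPH1 they were CCDC106 (0.989, 0.14) and TST (0.989, 0.12), and for SNORD3A GCSHP5 (0.905, -0.07) and WDR76 (0.889, -0.17). Each of these 12 genes had a smaller log2 fold change, in size, than the RNA it was most like. The RNAs were chosen on this contrast, and the 12 genes as the highest r among 8340 over 6 libraries. Nothing is therefore read from their r or from this difference in size.

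The messenger RNAs of the proteins in these particles, and of polymerase III, were read from 6 lists of 83 genes, of which 81 were tested. In them 5 rose and 21 fell (32.1% called, against 24% of all genes), with a median log2 fold change of -0.29 against -0.04 for all genes. Of all genes tested, 9.29% rose and 14.7% fell. These lists and the calls below come from edgeR's quasi-likelihood test with Benjamini-Hochberg adjustment over all 17805 genes.

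Of 12 genes of the 7SK particle and P-TEFb, 2 rose and 2 fell (33.3% called, 24% over all genes), with a median of 0.22. LARP7, which binds and stabilises the 3′ end of 7SK, was counted 295, 399 and 389 times under the knockdown label and 1738, 1911 and 1512 times under the control label. No library of one label reached the other, and LARP7 fell by 3.00 on the log2 scale (8.98 ± 1.29 against 71.9 ± 20.7 CPM, SD, n = 3 each; SE 0.24, adjusted p = 0.000635, edgeR). The RNA and its binding protein thus stood on opposite sides of the comparison, 7SK higher and LARP7 messenger RNA lower in the libraries labelled knockdown. CCNT2, a cyclin of P-TEFb, fell by 0.91 (SE 0.14, adjusted p = 0.00644), while its kinase CDK9 rose by 0.68 (SE 0.14, adjusted p = 0.016). MEPCE, the capping enzyme of 7SK, rose by 0.44 (SE 0.10, adjusted p = 0.0227), from 65.4 ± 2.61 to 88.9 ± 0.86 CPM. HEXIM1, the inhibitor that 7SK carries, stood at -0.39 ± 0.17 (adjusted p = 0.124). The call of CCNT2 ended with length and GC trends removed (-0.30), as did that of MEPCE (0.18), and that of CCNT2 also with limma on RPKM (-0.58). CDK9 was not called without any 1 of the libraries labelled knockdown (0.67 to 0.70), nor was MEPCE (0.44 to 0.46), which also missed the threshold without control library 1 (0.51). HEXIM1 passed it without control library 3 (-0.52), and the list then had 8 called genes, or 7 without control library 2. Over all genes tested, 5418 of 18560 were called without control library 3 and 9063 of 18693 without control library 2.

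Of 8 genes of the signal recognition particle and its receptor, 1 rose and 3 fell (50% called, 24% over all genes). Their median was -0.36. SRP54, the subunit that binds signal peptides, was counted 2108, 2091 and 2206 times under the knockdown label and 3597, 1811 and 3282 times under the control label. Scaled to depth the groups separated, at 53.2 ± 1.53 against 115 ± 23.4 CPM, and SRP54 fell by 1.12 (SE 0.17, adjusted p = 0.00549, edgeR). SRP19, which prepares 7SL for SRP54, fell by 0.78 (SE 0.19, adjusted p = 0.0292), and SRP72 by 0.50 (SE 0.11, adjusted p = 0.0185). SRP68, the partner of SRP72, stood at -0.04 ± 0.12 (adjusted p = 0.83) and its sign changed with scaling to the library total. SRPR, the receptor subunit at the endoplasmic reticulum, rose by 0.70 (SE 0.10, adjusted p = 0.00521). With length and GC trends removed SRP19 (-0.52) and SRP72 (-0.04) were no longer called. Both also missed the threshold without any 1 of the libraries labelled knockdown (-0.78 to -0.77 and -0.53 to -0.47) and without control library 1 (-0.73 and -0.43), and SRP72 with scaling to the library total (-0.34), with limma on RPKM (-0.31) and with no filter (-0.43).

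Of 10 tested proteins of RNase P and RNase MRP, 2 fell and 8 were not called (20% called, 24% over all genes). Their median was -0.35. RPP30 fell by 0.58 (SE 0.17, adjusted p = 0.044, edgeR) and RPP38 fell by 0.50 (SE 0.13, adjusted p = 0.0344). POP1, the largest shared subunit, stood at 0.07 ± 0.17 (adjusted p = 0.773). Neither call held with scaling to the library total (-0.39 for RPP30 and -0.32 for RPP38), with limma on RPKM (-0.35 and -0.29) or with no filter (-0.50 and -0.42), and that of RPP30 ended with length and GC trends removed (-0.38). Both were also lost without any 1 of the libraries labelled knockdown (-0.60 to -0.56 and -0.51 to -0.48). The same held without control library 1 (-0.56 and -0.47). Without control library 2 or 3 the list had 5 called genes. In those settings 9063 of 18693 and 5418 of 18560 of all genes tested were called.

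Of 19 proteins of the U3 particle, 7 fell and 12 were not called (36.8% called, 24% over all genes), with a median of -0.47. MPHOSPH10 fell by 2.02 (SE 0.13, adjusted p = 0.000312, edgeR), from 57.6 ± 5.98 to 14.2 ± 0.42 CPM, and its counts were 551, 536 and 622 in the libraries labelled knockdown against 1662, 1179 and 1409. NOP58, a core protein of box C/D particles, fell by 1.82 (SE 0.13, adjusted p = 0.000438), and DCAF13 by 1.32 (SE 0.15, adjusted p = 0.00183). The other core proteins varied more among the controls: FBL, the methyltransferase of these particles, stood at -0.71 ± 0.30 (adjusted p = 0.126) and NOP56 at -0.29 ± 0.20 (adjusted p = 0.325). Without control library 2 the list had 17 called genes, FBL among them (-0.28). In that setting 9063 of all 18693 genes tested were called.

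Of 13 listed genes for subunits of RNA polymerase III, not a full set, 1 rose and 2 fell (23.1% called, 24% over all genes). Their median was -0.09. POLR3G, which has a close paralog in POLR3GL, fell by 1.99 (SE 0.27, adjusted p = 0.00386, edgeR), from 12.2 ± 3.84 to 3.07 ± 0.27 CPM. POLR3C fell by 1.12 (SE 0.22, adjusted p = 0.0128, edgeR). Its level was low, at 0.92 ± 0.13 against 2.00 ± 0.11 CPM, from 32, 42 and 37 against 53, 38 and 58 counts. POLR3E rose by 0.57 (SE 0.10, adjusted p = 0.0105), a call that ended with length and GC trends removed (0.13). POLR3A, the largest subunit, stood at 0.27 ± 0.12 (adjusted p = 0.146). POLR3C and POLR3E missed the threshold without any 1 of the libraries labelled knockdown (-1.24 to -1.04 and 0.57 to 0.58).

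Of 19 tested polymerase III factors, 1 rose and 5 fell (31.6% called, 24% over all genes), with a median of -0.02. SSB (La), which binds the U-rich 3′ ends of new polymerase III transcripts, fell by 1.51 (SE 0.14, adjusted p = 0.00085, edgeR), at 100.8 ± 2.01 against 286 ± 38.5 CPM. SNAPC1, of the complex that binds promoters of the 7SK type, fell by 1.53 (SE 0.16, adjusted p = 0.00161), and TBP by 0.69 (SE 0.12, adjusted p = 0.01). Of the TFIIIC subunits, which bind internal promoters, GTF3C6 fell by 1.10 (SE 0.15, adjusted p = 0.004) and GTF3C3 by 0.72 (SE 0.11, adjusted p = 0.00632), whereas GTF3C1, the largest, rose by 1.32 (SE 0.29, adjusted p = 0.0201), with 14138, 13483 and 15434 counts against 4143, 1649 and 5254. BRF1, of the initiation factor TFIIIB, stood at 0.04 ± 0.11 (adjusted p = 0.798), SNAPC4 at 0.48 ± 0.18 (adjusted p = 0.089) and MAF1, the repressor of polymerase III, at 0.04 ± 0.16 (adjusted p = 0.861). The call of GTF3C3 ended with length and GC trends removed (-0.30), and the sign of BRF1 and MAF1 changed there (-0.58 and -0.13). GTF3C1 was not called without any 1 of the libraries labelled knockdown (1.30 to 1.35) or without control library 1 (1.41), and TBP without any 1 of those labelled knockdown (-0.70 to -0.66). GTF3C3 missed the threshold without knockdown library 2 (-0.68) or 3 (-0.70), and SNAPC4 passed it without control library 2 (0.31). The list then had 12 called genes, where 9063 of all 18693 genes tested were called.

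**Figure D5:**
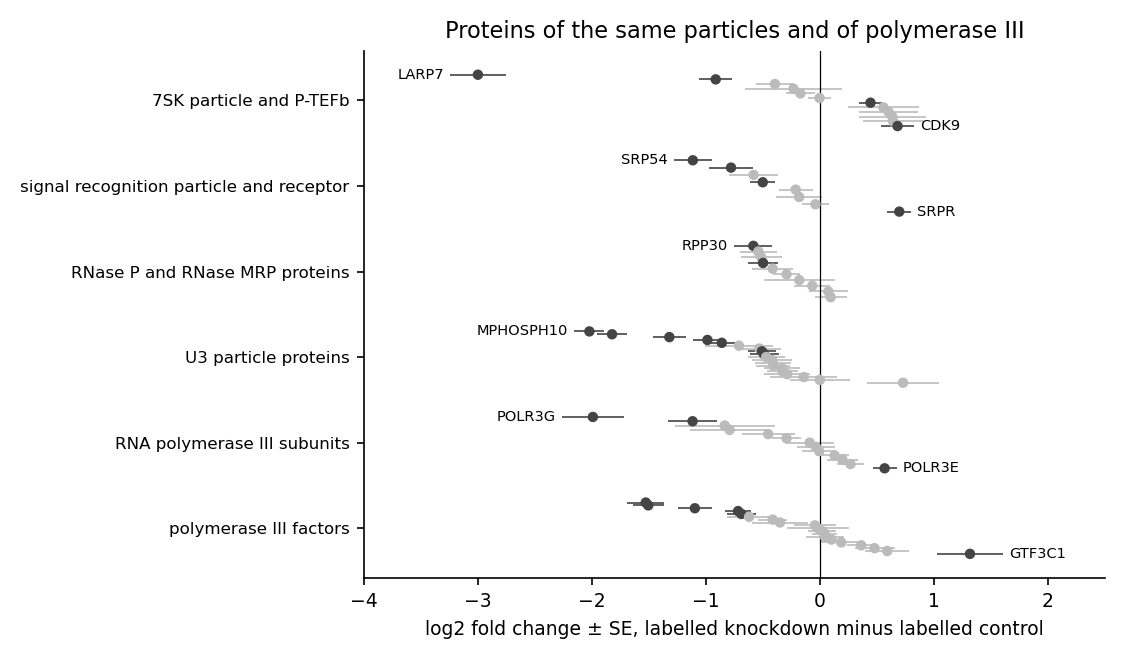
Log2 fold change with SE (labelled knockdown minus labelled control) of each tested gene in the 6 protein lists, dark where the adjusted p (edgeR) is under 0.05 and grey where it is not. LARP7 lies lowest of all, apart from the other genes of its list, and GTF3C1 at 1.32 is the highest of its list.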

How the data were processed

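Total RNA from HEK293 cells was sequenced in 6 libraries, 3 with the label TRDMT1 knockdown and 3 with the label control. The deposited table gives raw read counts per gene and RPKM; recomputing RPKM from the count, the exonic length and the library total gave the authors' RPKM within 0.006 for 100% of values. The submitters' processing notes name bcl2fastq 2.17.1.14, HTSeq 0.6.1, StringTie 1, DESeq 1.18.0, DESeq2 1.6.3, edgeR 3.4.6 and the build hg19, with no roles; the aligner, the annotation, the strand setting, the handling of reads with several matches and whether the counted libraries were bisulfite-treated are not given in the sources used here. Columns were tied to samples by the second name in each description, and 0 were left unmatched. Rows with no gene name made up 0 of 57773.

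Counts of 17805 genes that passed edgeR's filter (minimum count 10, here 0.316 CPM) were fitted with edgeR 4.0.16 in R 4.3.3 (TMM, robust quasi-likelihood test, Benjamini-Hochberg adjustment over all genes tested, threshold 0.05), without a replicate block. Log2 CPM for correlations used a prior count of 2. Alternatives were other scalings, DESeq2 1.42.0, limma 3.58.1 on log2(RPKM + 1), no filter, a replicate block, leaving out each library, and, chosen after seeing the data, removal of length and GC trends with mgcv 1.9.3 (17304 genes with a GC value, 97.2%). The fitting was tested on simulated data. The RNAs described and all gene lists were chosen with earlier results of these data known; neighbouring genes, length classes and family copies were added after the data were seen. Genes named were TRDMT1, the 6 RNAs, every called gene of a list or, above 6, the 3 largest rises and falls, 15 core partners whatever their value, listed RNAs with at least 100 counts, and the 2 profiles most like each RNA. No genome of the files' build was at hand, so no coordinates are given. The sequences of the 7SL genes are not reported here.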

Additional observations from a re-analysis of the deposited data

How the results depend on the processing

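The log2 fold changes of RN7SK, RN7SL1, RN7SL2, RMRP and RPPH1 were positive under all 14 alternatives, and that of SNORD3A was positive in 1. Leaving out 1 library gave 2.67 to 4.60 for RN7SK, 1.08 to 2.11 for RN7SL1, 1.72 to 2.84 for RN7SL2, 1.78 to 4.03 for RMRP, 0.18 to 1.88 for RPPH1 and -0.57 to 0.086 for SNORD3A, each highest value without control library 2 except for SNORD3A. Summing the 7SK family gave 1.89. TRDMT1, at 0.61, became called at 0.80 (library total), 0.64 (DESeq2), 0.25 (limma on RPKM) and 1.11 (length and GC trends removed), and ranged from 0.45 to 0.79 with 1 library left out, called without control library 2.

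Leaving out 1 library gave 1191 to 9063 called genes where the full set gave 4267: there were 1246, 1315 and 1191 without knockdown libraries 1, 2 and 3, 2044 without control library 1 and 9063 without control library 2. The called genes then ranged from 2 to 8 for the 7SK particle, 2 to 5 for the signal recognition particle, 0 to 5 for RNase P and RNase MRP, 5 to 17 for U3, 1 to 3 for polymerase III subunits, 3 to 12 for its factors, 0 to 2 for its other RNAs and 0 to 1 for polymerase II small nuclear RNAs. The RNase P and RNase MRP list had 0 called genes with library-total scaling, limma or no filter and 4 with trends removed; the factors had 10 with DESeq2, and the other polymerase III RNAs 0 with trends removed, where RN7SL3 was not fitted. Signs changed for SRP68 (0.14 with the library total, 0.14 with limma, 0.038 with no filter, 0.025 and 0.0038 without control libraries 1 and 2, and -0.10 to 0.025 with 1 library left out), POP1 (-0.047 without control library 2, up to 0.23 with another left out), BRF1 (-0.58 with trends removed) and MAF1 (-0.088 without control library 3, up to 0.22 with another left out, -0.13 with trends removed); the cause was not tested. LARP7, SRP54, SRPR, NOP58, MPHOSPH10, DCAF13, POLR3G, GTF3C6, SNAPC1 and SSB were called under all 14.

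Over all genes tested, same-numbered libraries did not deviate together (correlations -0.04, 0.06 and 0.001), which cannot exclude pairing. By CPM, replicate 2 was the highest of both groups for RN7SK, RN7SL1, RN7SL2 and RPPH1, but not for RMRP or SNORD3A. A replicate block changed the SE of RN7SK from 0.74 to 0.49, of RN7SL1 from 0.46 to 0.27 and of RN7SL2 from 0.52 to 0.35. For RMRP it went from 0.73 to 0.65, for RPPH1 from 0.70 to 0.62 and for SNORD3A from 0.45 to 0.43. With the replicate number as a block, 2976 genes were called, RNase P and RNase MRP had 0, and MEPCE (0.45), SRP72 (-0.50), RPP30 (-0.56) and RPP38 (-0.49) were not called. Depth limits RMRP, RPPH1 and SNORD3A, with 2 to 74 counts a library.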
